A study of Mus musculus with 12 samples.

Results

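The genes described here are 10 genes of the unfolded protein response and the integrated stress response: Hspa5, Xbp1, Ern2, Atf4, Ddit3, Trib3, Chac1, Atf5, Asns and Sesn2. They were taken by name from single-colour Agilent arrays, on which 11 probes carried them among probes for 30139 genes or transcripts, and all 10 were among the 20084 genes tested. Colorectal tissue of female C57BL/6N mice aged 14 weeks was measured on 12 arrays. Wild-type mice 102, 104, 105 and 108 each gave normal tissue, and mice 103, 106, 107 and 110, heterozygous for the truncating Apc Δ716 allele, each gave normal tissue and polyp tissue. Every group therefore held 4 arrays from 4 mice, and the Apc normal and polyp arrays came from the same animals. The labels do not say whether a polyp array held 1 polyp or several. All 11 probes were well above background on all 12 arrays.

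The unfolded protein response is started by the membrane sensors IRE1, PERK and ATF6 when unfolded proteins load the endoplasmic reticulum (ER), and it raises chaperones, folding enzymes and the machinery that degrades misfolded proteins. The integrated stress response joins PERK with other kinases that phosphorylate eIF2α, which lowers general translation while ATF4 protein is made and switches on genes for amino acid supply, redox balance and, under lasting stress, cell death. Secretory cells of the gut, above all goblet and Paneth cells, depend on the IRE1 and XBP1 branch. XBP1 activity is set by splicing of its mRNA and ATF4 largely by translation, and neither step is read by the array probes. Each level below is a log2 signal after subtracting the array's own 75th percentile. A difference is a log2 difference ± SE between groups of 4, tested with limma on each comparison's own 8 arrays. The test did not use the pairing of tissues by mouse, which entered only as an alternative. A gene passed at a Benjamini-Hochberg adjusted p under 0.05 over all genes tested. Array signals of different probes are not comparable, so levels are compared between arrays and never between genes.

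Promoter sequence was available for 9 of the 10 genes, and 250 bases before each RefSeq start were searched for the binding motifs of the 2 pathways on both strands. The motifs were the C/EBP-ATF response element bound by ATF4 (TGATGNAA, here called CARE), the ER stress response element bound by NF-Y and ATF6 (CCAAT and CCACG 9 bases apart) and the core bound by XBP1 (TGACGTGG). CARE was found in 3.45% of 32851 mouse promoter windows of that length, the ER stress response element in 0.113% and the XBP1 core in 0.563%. Matches were found in 3 of the 9 genes, with Hspa5 matching the ER stress response element, Chac1 and Asns matching CARE, and none matching the XBP1 core. These 3 promoters are shown 5′ to 3′ on the strand of the gene, from RefSeq on GRCm38.p6, with the match in capitals.
Hspa5 promoter, chr2:34771840-34772089 (+ strand): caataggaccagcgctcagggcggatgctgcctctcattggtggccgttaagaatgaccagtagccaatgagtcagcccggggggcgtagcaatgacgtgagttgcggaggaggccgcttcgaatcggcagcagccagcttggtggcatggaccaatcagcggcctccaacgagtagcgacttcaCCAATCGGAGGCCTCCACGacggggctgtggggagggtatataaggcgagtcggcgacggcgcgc
Chac1 promoter, chr2:119350992-119351241 (+ strand): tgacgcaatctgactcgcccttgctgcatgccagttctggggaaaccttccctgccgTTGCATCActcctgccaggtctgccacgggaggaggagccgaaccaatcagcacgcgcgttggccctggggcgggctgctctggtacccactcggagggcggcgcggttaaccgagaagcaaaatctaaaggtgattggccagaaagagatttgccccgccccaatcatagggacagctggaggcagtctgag
Asns promoter, chr6:7693210-7693459 (- strand): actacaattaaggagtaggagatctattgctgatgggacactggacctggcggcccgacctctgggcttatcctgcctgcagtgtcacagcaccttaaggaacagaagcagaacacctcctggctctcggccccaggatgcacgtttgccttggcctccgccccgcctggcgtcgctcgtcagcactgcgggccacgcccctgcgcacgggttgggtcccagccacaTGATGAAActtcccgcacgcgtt

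The ER stress response element of Hspa5 lay 65 to 47 bases before its start. In Chac1 the CARE match read TTGCATCA on the gene's strand, 193 to 186 bases before the start. In Asns it lay 23 to 16 bases before the start. A match says that the letters are there and not that a factor was bound. The probes of Ern2 and Ddit3 are shown as well, because the falls of these genes described below each rest on 1 sequence of 60 bases. The array's coordinates are those of mm9, and each of these probes spans more genome than its own length (143 and 304 bases), so that each bridges a gap between exons.
Ern2 probe, chr7:129316864-129317006 (- strand): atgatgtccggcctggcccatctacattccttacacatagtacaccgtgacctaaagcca
Ddit3 probe, chr10:126732518-126732821 (+ strand): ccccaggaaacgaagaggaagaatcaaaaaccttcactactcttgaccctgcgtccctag

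Well-measured spots, those well above background, made up 64.6% to 73.8% of each array, none was saturated, and the number of arrays limits the precision. Wild-type arrays lay on slide 1, mice 103 and 106 on slide 2, and mice 107 and 110 on slide 3. Marker lists described what the tissues held. The summed linear level of 8 epithelial markers was 579 to 719 in wild-type tissue, 592 to 686 in Apc normal tissue and 420 to 487 in polyps. Compared with Apc normal tissue, polyps had less of all 10 smooth muscle markers (median −3.62), as were all 10 colonocyte markers (median −2.58), 8 of 10 goblet cell markers (median −1.48) and all 7 enteroendocrine markers (median −3.12). All 6 Paneth cell markers were higher (median 4.50), as were 5 of 9 neutrophil markers (median 3.90). In whole tissue, fewer cells of a type and less RNA per cell cannot be told apart, and the part of these shifts in the differences below was not tested beyond the values given.

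**Figure D1:**
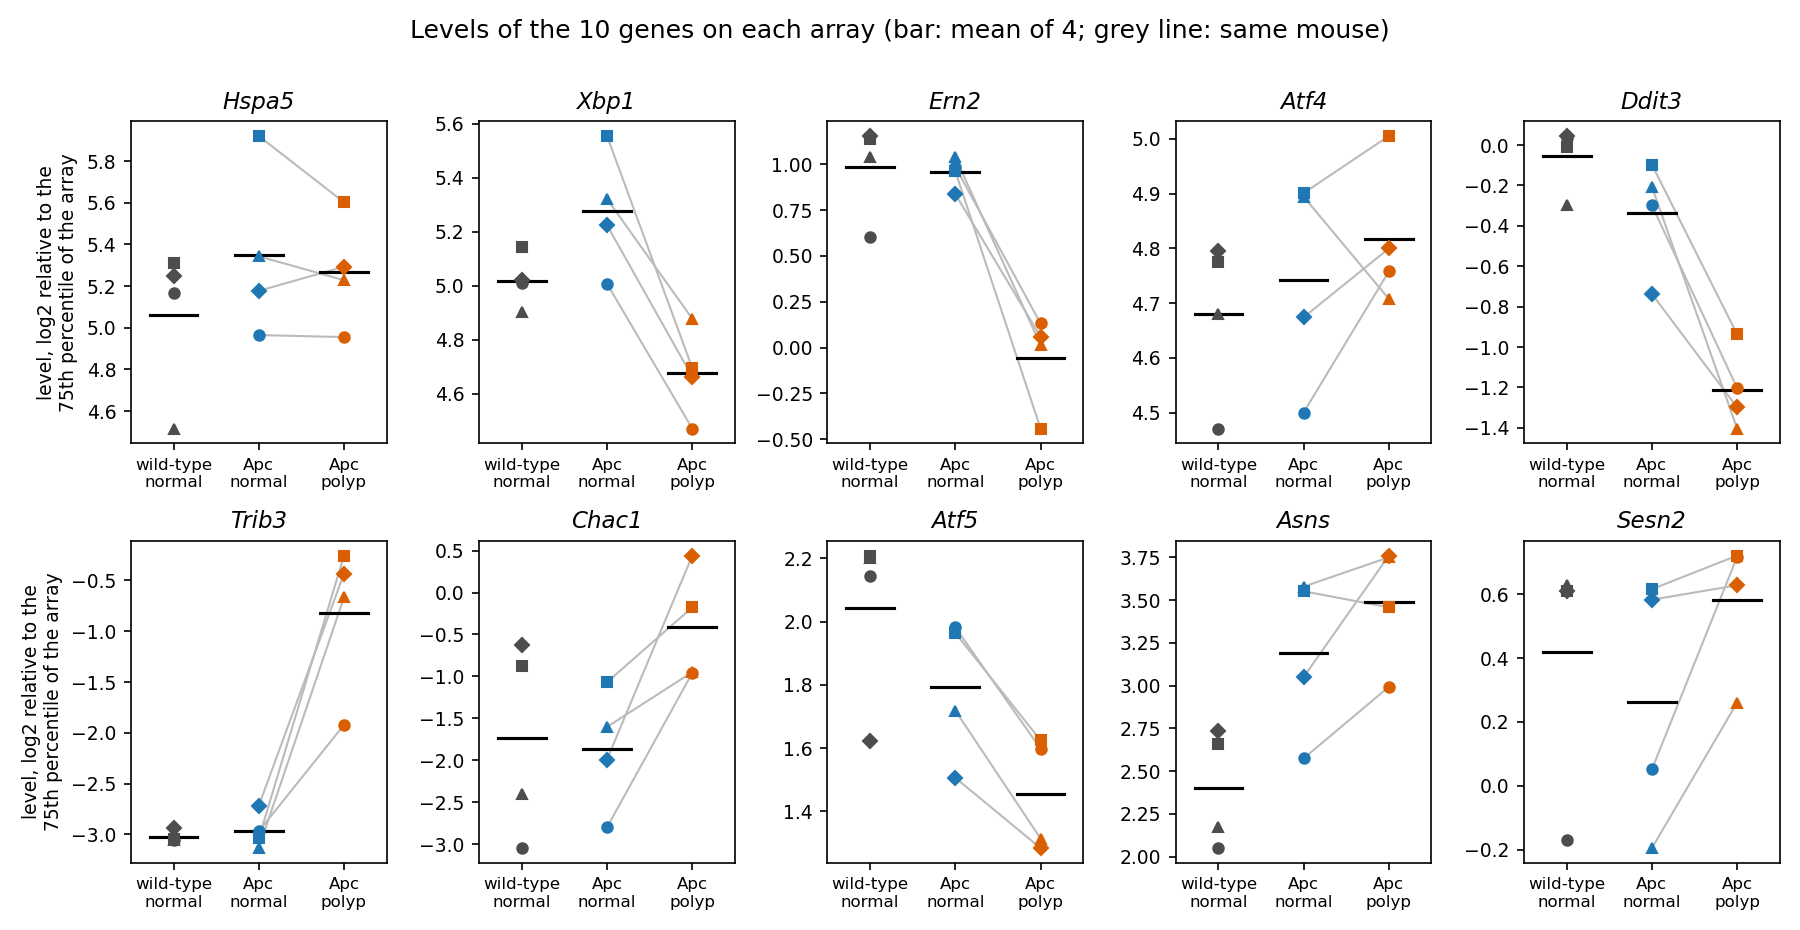
Level of each gene (log2 signal minus the array's 75th percentile; 1 panel per gene with its own axis) on 4 wild-type normal, 4 Apc normal and 4 polyp arrays. Points are arrays, marker shapes tell the mice of a group apart, black bars are group means and grey lines join the tissues of 1 mouse. Ern2, Ddit3 and Xbp1 are lower, and Trib3 and Chac1 higher, in the polyp of all 4 mice than in its Apc normal tissue.

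Polyps held less Ern2, Ddit3 and Xbp1 mRNA and more Trib3 and Chac1 mRNA than the normal tissue of the same 4 mice, while Hspa5, Atf4, Atf5, Asns and Sesn2 did not pass the test. So 2 of the 10 genes passed as higher and 3 as lower. Over all genes tested, 20.5% were higher and 24.9% were lower in this comparison. Groups did not overlap for 5 of the 10, against 45.1% of all genes tested. The number of these genes that differed was thus near the share of all genes, and what follows concerns which genes differed and in which direction.

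Hspa5 encodes BiP, the main chaperone of the ER lumen and the classic readout of ER stress. Its level was 5.17, 5.31, 4.52 and 5.25 in wild-type mice 102, 104, 105 and 108. In Apc normal tissue of mice 103, 106, 107 and 110 it was 4.97, 5.92, 5.34 and 5.18, and in their polyps 4.96, 5.60, 5.23 and 5.29. The groups overlapped throughout, with mouse 106 highest in both of its tissues and wild-type mouse 105 lowest. Polyps differed from Apc normal tissue by −0.08 ± 0.23 (95% interval −0.60 to 0.44, adjusted p = 0.791 in limma), and the sign turned under quantile normalization, to 0.31.

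Xbp1, the transcription factor that IRE1 activates by splicing, had wild-type levels of 5.01, 5.14, 4.90 and 5.02 in mice 102, 104, 105 and 108. Its Apc normal levels were 5.01, 5.56, 5.32 and 5.22 in mice 103, 106, 107 and 110, and its polyp levels 4.47, 4.70, 4.88 and 4.66. Every polyp lay below every normal sample of either genotype. The difference between polyps and Apc normal tissue was −0.60 ± 0.15 (1.52-fold lower, adjusted p = 0.0110 in limma), and it was −0.54, −0.86, −0.44 and −0.56 in the 4 mice. Quantile normalization kept the direction but not the call (−0.24, adjusted p = 0.196), also after normexp background correction (−0.26, adjusted p = 0.149).

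Xbp1 is abundant in plasma cells and goblet cells, so their markers were set beside it, as were those of Paneth cells, named above. The summed level of 11 plasma and B cell markers was 39.3 to 49.5 in wild-type tissue, 40.6 to 123 in Apc normal tissue and 24.6 to 60.2 in polyps. The plasma and B cell sum was highest in the Apc normal tissue of mice 106 (123) and 110 (119), the first of which also had the highest Xbp1. Xbp1 in the Apc normal tissue of mouse 110 was lower than in that of mouse 107, whose sum was 57.0. Of these 11 markers, 1 passed as higher and 1 as lower in polyps, with a median difference of −1.68 from Apc normal tissue. The higher was Sdc1, with means of 2.60 in Apc normal tissue and 3.59 in polyps, and the lower Tnfrsf17 (−2.47 and −4.72). The sum therefore holds a bright marker that went against the median. The summed level of 10 goblet cell markers was 983 to 1326 in wild-type tissue, 982 to 1421 in Apc normal tissue and 328 to 570 in polyps, so that it separated polyps from normal tissue as Xbp1 did. The Paneth cell markers went the other way, with sums of 3.90 to 45.2 in wild-type tissue, 10.4 to 17.4 in Apc normal tissue and 252 to 372 in polyps. The part of any of these cell types in the Xbp1 difference was not tested. Without the Apc normal arrays of mice 106 and 110, a setting chosen after seeing the data, the Xbp1 difference was −0.49 (adjusted p = 0.0471).

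Ern2 encodes IRE1β, the IRE1 form of gut epithelium, best known from goblet cells. Its level was 0.61, 1.14, 1.04 and 1.15 in wild-type mice 102, 104, 105 and 108. In the mutant mice 103, 106, 107 and 110 it was 0.99, 0.96, 1.04 and 0.84 in normal tissue and 0.13, −0.44, 0.01 and 0.06 in polyps. The normal samples of both genotypes lay together and all polyps lay below them, with the polyp of mouse 106 lowest. Polyp levels of Ern2 were 2.02-fold below those of Apc normal tissue (−1.01 ± 0.14, adjusted p = 0.000871 in limma).

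The summed level of the 10 goblet cell markers, given above beside Xbp1, separated polyps from normal tissue as Ern2 did. So did the colonocyte, epithelial, smooth muscle and enteroendocrine sums, the last at 8.58 to 17.3 in polyps and 53.7 or more in normal tissue. The polyp of mouse 106 was lowest for goblet markers, but also for colonocyte, epithelial and smooth muscle markers. Among wild-type mice, Ern2 was lowest in mouse 102 (goblet sum 1143), whereas the goblet sum was lowest in mouse 105 (983). The goblet mucus genes Clca1 and Fcgbp were lower in polyps by −1.96 and −2.06. How much of the Ern2 difference goes with goblet cells was not tested. The ubiquitous form, Ern1, differed by 0.09 ± 0.12 (95% interval −0.19 to 0.37, adjusted p = 0.564 in limma), named here for its role.

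**Figure D2:**
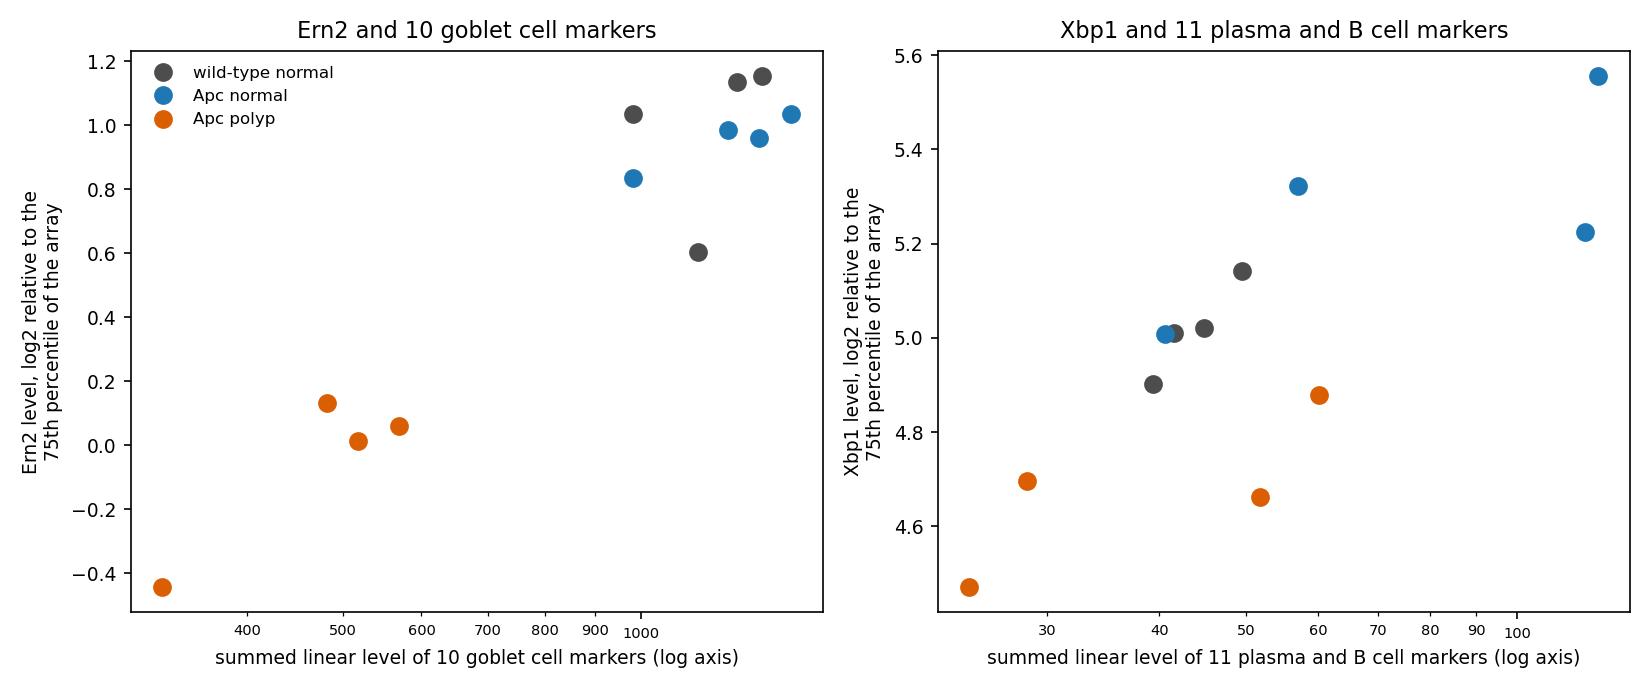
Left, Ern2 level against the summed linear level of 10 goblet cell markers; right, Xbp1 level against that of 11 plasma and B cell markers (horizontal axes are log scales; points are the 12 arrays, coloured by group). The 4 polyps lie at goblet sums of 328 to 570 and the 8 normal samples at 982 or more, while polyp and normal samples overlap in their plasma and B cell sums.

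In the integrated stress response, Atf4 encodes the factor at its centre. Its level was 4.47, 4.78, 4.68 and 4.80 in wild-type mice 102, 104, 105 and 108. It was 4.50, 4.90, 4.89 and 4.67 in Apc normal tissue of mice 103, 106, 107 and 110 and 4.76, 5.01, 4.71 and 4.80 in their polyps. The 3 groups overlapped. The difference between polyps and Apc normal tissue was 0.08 ± 0.13 (95% interval −0.22 to 0.37, adjusted p = 0.664 in limma), and the second Atf4 probe gave 0.14. Atf4 passed as higher under quantile normalization (0.43, adjusted p = 0.0321), also after normexp correction (0.43, adjusted p = 0.0138).

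Ddit3 encodes CHOP, an ATF4-induced factor tied to cell death under lasting ER stress. Its level was 0.03, −0.01, −0.29 and 0.04 in wild-type mice 102, 104, 105 and 108. It was −0.30, −0.10, −0.21 and −0.74 in Apc normal tissue of mice 103, 106, 107 and 110, and −1.20, −0.94, −1.40 and −1.30 in their polyps. All polyps lay below all normal samples, and the Apc normal tissue of mouse 110 was the lowest of those. Polyp levels of Ddit3 were 1.84-fold below those of Apc normal tissue (−0.88 ± 0.17, adjusted p = 0.00387 in limma), with differences of −0.56 to −1.20 in the 4 mice.

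Trib3 encodes a pseudokinase that ATF4 and CHOP induce and that restrains both ATF4 and AKT. Its level was −3.06, −3.04, −3.06 and −2.94 in wild-type mice 102, 104, 105 and 108, and −2.97, −3.04, −3.13 and −2.72 in Apc normal tissue of mice 103, 106, 107 and 110. In polyps it was −1.92, −0.26, −0.67 and −0.43. The 8 normal samples lay within a narrow band, and all polyps lay above it, with the polyp of mouse 103 closest to it. Trib3 was 4.42-fold higher in polyps than in Apc normal tissue (2.15 ± 0.34, adjusted p = 0.00159 in limma). The rise was 1.05 in mouse 103 and 2.29 to 2.78 in the other mice. Trib3 and Ddit3, both targets of ATF4, thus moved in opposite directions.

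Chac1 encodes a glutathione-degrading enzyme induced by ATF4. Its level was −3.05, −0.88, −2.40 and −0.63 in wild-type mice 102, 104, 105 and 108. It was −2.80, −1.07, −1.60 and −1.99 in Apc normal tissue of mice 103, 106, 107 and 110 and −0.96, −0.18, −0.95 and 0.44 in their polyps. Polyps lay above all Apc normal samples, but overlapped with wild-type mice 104 and 108. Chac1 was 2.74-fold higher in polyps than in Apc normal tissue (1.46 ± 0.44, adjusted p = 0.0266 in limma), by 0.65 to 2.43 in the 4 mice.

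The Chac1 call was lost without the normal array of mouse 103 (1.14, adjusted p = 0.0557) or of mouse 110 (1.41, adjusted p = 0.0591), and with the polyp of mouse 106 (1.38, adjusted p = 0.0697) or that of mouse 110 (1.17, adjusted p = 0.0619) left out. With all 12 arrays in 1 fit the adjusted p was 0.0526. Chac1 levels also differed by the place of an array on its slide. Apc normal samples lay at positions 1 and 3 and polyps at positions 2 and 4, so tissue and position cannot be told apart within slides 2 and 3. On the wild-type slide, where all 4 samples were normal tissue, Chac1 was higher by 1.97 at positions 2 and 4 than at 1 and 3. Each position there held a different mouse, so mouse and position cannot be told apart on that slide. Over all genes tested, the middle 95% of this position difference ran from −0.65 to 0.89. It was 0.59 for Asns, 0.44 for Hspa5, 0.38 for Sesn2, 0.32 for Ern2 and 0.21 for Atf4. For Ddit3 it was 0.15, for Xbp1 0.13, for Trib3 0.07 and for Atf5 −0.26.

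**Figure D3:**
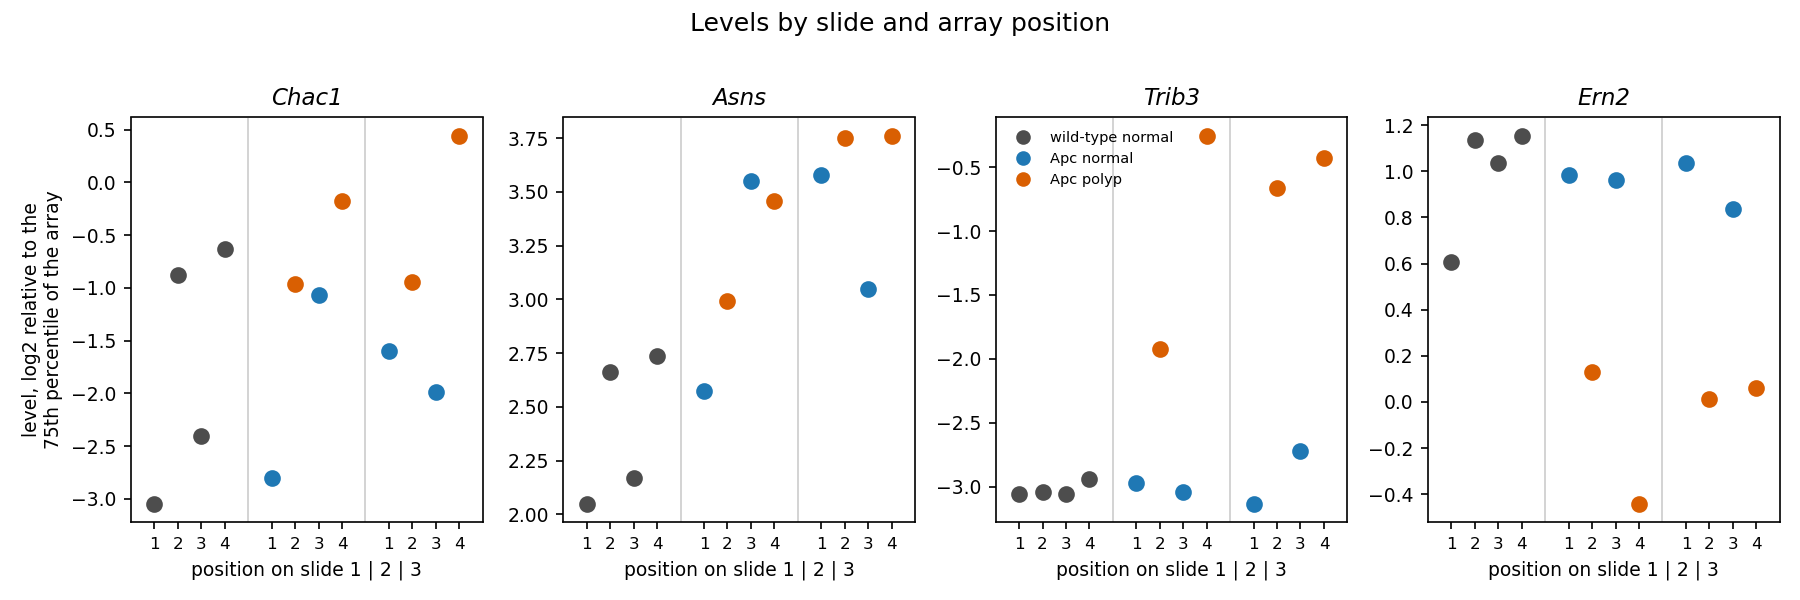
Levels of Chac1, Asns, Trib3 and Ern2 (log2 signal minus the array's 75th percentile) by position 1 to 4 on slides 1 to 3, coloured by group. Chac1 is higher at positions 2 and 4 than at 1 and 3 on all 3 slides, the wild-type slide included (a difference of 1.97 there), whereas Trib3 differs by 0.07 between those positions on the wild-type slide.

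Atf5 encodes a factor that is translated like ATF4 and that regulates mitochondrial stress genes. Its level was 2.14, 2.21, 2.20 and 1.62 in wild-type mice 102, 104, 105 and 108. It was 1.98, 1.96, 1.72 and 1.51 in Apc normal tissue of mice 103, 106, 107 and 110 and 1.60, 1.62, 1.31 and 1.28 in their polyps. It was lower in the polyp of every mouse, but the groups overlapped through the Apc normal tissue of mouse 110. The difference of −0.34 ± 0.15 did not pass (adjusted p = 0.0987 in limma). With the mouse as a block it passed (adjusted p = 0.0380), as it did with the slide as a block (adjusted p = 0.0259) or without the normal array of mouse 110 (−0.43, adjusted p = 0.0443).

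Asns encodes asparagine synthetase, the amino acid response target with the CARE match shown above. Its level was 2.05, 2.66, 2.17 and 2.74 in wild-type mice 102, 104, 105 and 108. It was 2.57, 3.55, 3.58 and 3.05 in Apc normal tissue of mice 103, 106, 107 and 110, and 2.99, 3.46, 3.75 and 3.76 in their polyps. The groups of the mutant mice overlapped, and the wild-type samples lay at the low end. Asns differed by 0.30 ± 0.27 between polyps and Apc normal tissue (95% interval −0.32 to 0.93, adjusted p = 0.396 in limma).

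Sesn2 encodes sestrin 2, a leucine sensor and inhibitor of mTORC1. Its level was −0.17, 0.61, 0.63 and 0.61 in wild-type mice 102, 104, 105 and 108. It was 0.05, 0.62, −0.19 and 0.58 in Apc normal tissue of mice 103, 106, 107 and 110 and 0.72, 0.72, 0.26 and 0.63 in their polyps. The groups overlapped. Wild-type mouse 102 and the normal tissue of mice 103 and 107 were low, and the polyp of mouse 107 was the lowest of the polyps. The difference was 0.32 ± 0.21 (95% interval −0.17 to 0.81, adjusted p = 0.259 in limma). It passed without the Apc normal arrays of mice 106 and 110 (0.65, adjusted p = 0.0246).

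**Figure D4:**
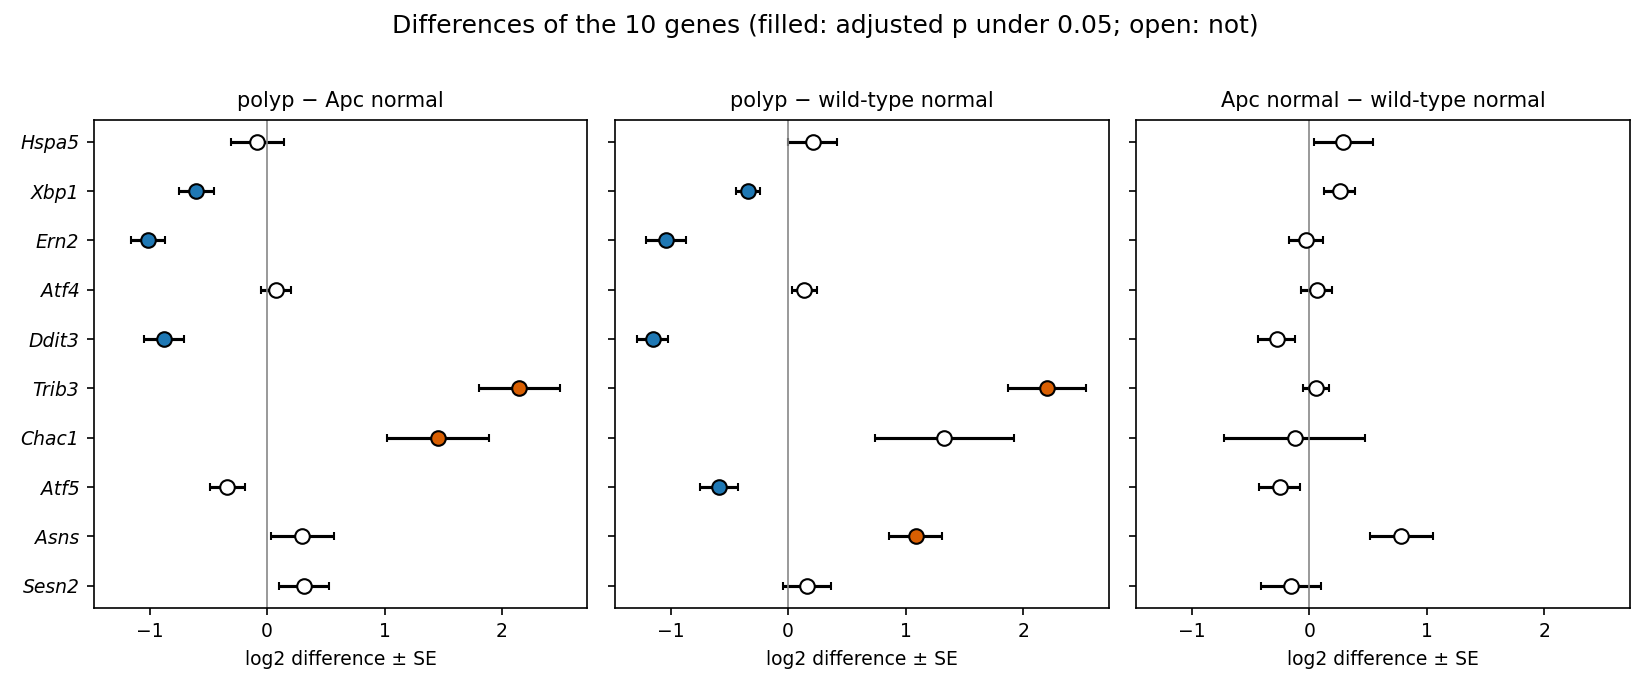
Log2 differences ± SE (bars) of the 10 genes in the 3 comparisons, each between 4 and 4 arrays. Filled points passed at an adjusted p under 0.05 (orange higher, blue lower) and open points did not; Trib3 stands at 2.15 and 2.20 in the 2 comparisons of polyps, and no gene passed between the normal tissues.

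Set against wild-type normal tissue, polyps again held more Trib3 and less Ddit3, Ern2 and Xbp1, and 2 further genes passed. This comparison shares its polyp samples with the one above, so the values are given side by side and are not independent. Of the 10 genes, 2 passed as higher and 4 as lower, beside 27.4% higher and 32.8% lower over all genes tested. Trib3 was 4.61-fold higher (2.20 ± 0.33, adjusted p = 0.000656 in limma) and Asns 2.12-fold higher (1.09 ± 0.23, adjusted p = 0.00347). Every polyp lay above every wild-type sample for both. Ddit3 differed by −1.15 ± 0.13, Ern2 by −1.04 ± 0.17, Atf5 by −0.59 ± 0.16 and Xbp1 by −0.34 ± 0.11 (adjusted p = 0.000129, 0.00101, 0.0124 and 0.0226 in limma).

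Of these falls, that of Xbp1 was least stable. Its sign turned under quantile normalization (0.0024), and it lost its call without wild-type mouse 104 (−0.30, adjusted p = 0.0637) or without the polyp of mouse 110 (−0.34, adjusted p = 0.0508). Chac1 differed by 1.33 ± 0.59 and did not pass (adjusted p = 0.0826 in limma), although it did without wild-type mouse 108 (1.70, adjusted p = 0.0376). Hspa5 differed by 0.21 ± 0.21 and Atf4 by 0.14 ± 0.11, neither of which passed. Both passed as higher under quantile normalization, Hspa5 at 0.60 (adjusted p = 0.0227) and Atf4 at 0.47 (adjusted p = 0.0116). All wild-type samples lay on slide 1 and no polyp did, so that slide and genotype cannot be told apart here.

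Between Apc normal and wild-type normal tissue, none of the 10 genes passed in limma. Over all genes tested 0.169% passed in either direction (30 higher and 4 lower). Without the normal array of mouse 103, 330 passed as higher and 200 as lower, with none of the 10 genes among them. At an unadjusted p under 0.05 there were 3439 genes and 1 of the 10, Asns, whose difference was 0.78 ± 0.27 (95% interval 0.17 to 1.40, adjusted p = 0.209). Ern2 differed by −0.03 ± 0.14 and Trib3 by 0.06 ± 0.11, with 95% intervals of −0.35 to 0.30 and −0.20 to 0.32. The interval was widest for Chac1 (−1.51 to 1.26), whose wild-type samples differed most among themselves. Ddit3 differed by −0.28 ± 0.16, Atf5 by −0.25 ± 0.17 and Xbp1 by 0.26 ± 0.13. Slide 1 held all wild-type samples, so slide and genotype cannot be told apart in this comparison either.

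The other genes of the 2 responses were followed in 4 lists with 91 names, of which 89 genes were tested. In polyps against Apc normal tissue, 18 passed as higher and 18 as lower, near the shares over all genes tested (20.5% and 24.9%). The counts by list follow as a description, and the difference between lists was not tested. The targets of the integrated stress response other than the 10 genes had 15 higher and 2 lower of 31 (median difference 0.48), while the median over all genes tested was −0.06. The 15 include Slc7a11, which passed the filter on dim probes only through its polyp arrays. The ER degradation, translocation and transport genes had 1 higher and 7 lower of 23 (median −0.28). ER chaperones and folding enzymes had none higher and 5 lower of 20 (median −0.04), and sensors and transcription factors had 2 higher and 4 lower of 15 (median 0.01). Fkbp11 and Fgf21 were not tested. The lists were chosen with results of these data known, so their counts are a description.

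**Figure D5:**
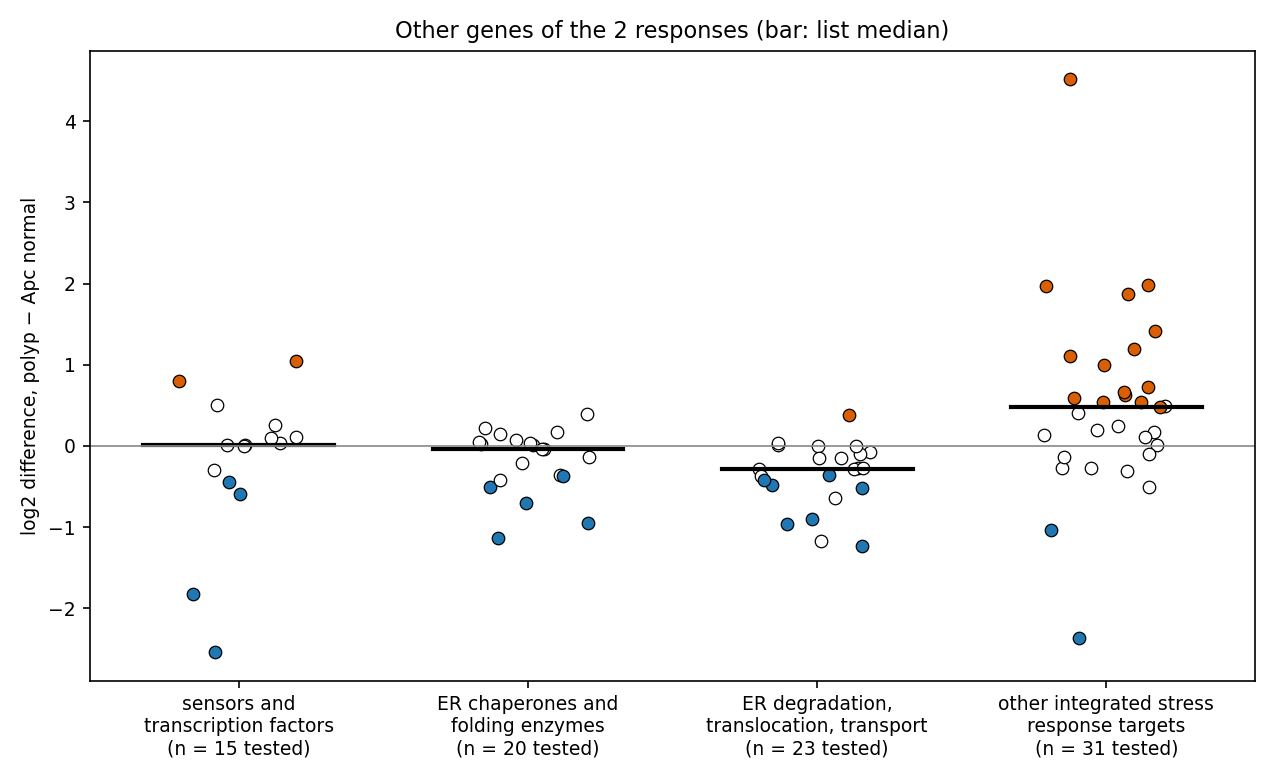
Log2 difference between polyps and Apc normal tissue for each tested gene of 4 lists (points; orange higher and blue lower at an adjusted p under 0.05, open not passed; black bars are list medians; the sideways spread within a list carries no meaning). The list medians are 0.01, −0.04, −0.28 and 0.48 from left to right.

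The genes of smallest p among the ER lists that fell are given first. Herpud1, a scaffold of ER-associated degradation, was 3.67, 3.60, 3.56 and 3.68 in Apc normal tissue of mice 103, 106, 107 and 110 and 2.31, 2.37, 2.33 and 2.58 in their polyps. These groups did not overlap (−1.23 ± 0.10, 2.34-fold lower, adjusted p = 0.000105 in limma). Dnajb9, a co-chaperone of BiP, was 2.19-fold lower (−1.13 ± 0.18, adjusted p = 0.00157). Edem1, which hands misfolded glycoproteins to degradation, was 1.87-fold lower (−0.91 ± 0.12, adjusted p = 0.000569). Pdia5, a disulfide isomerase, differed by −0.95, Sec24d, a coat subunit of vesicles leaving the ER, by −0.96, and the co-chaperone gene Dnajb11 by −0.51. Averaged over its probes, Dnajb11 differed by −0.17 and did not pass.

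Other ER genes that stress is known to induce did not pass, among them Sdf2l1 (−0.04), Creld2 (0.07), Hsp90b1 (−0.13) and Manf (0.17), named after their values were seen. Further genes of the same lists passed as lower, among them Ero1b (−0.70), Syvn1 (−0.52), Sel1l (−0.48) and Sil1 (−0.37). The chaperone and isomerase genes Hyou1, Pdia3 and Pdia4 differed by 0.39 ± 0.19, 0.15 ± 0.11 and 0.22 ± 0.18 and did not pass, though Hyou1 passed with the mouse as a block (adjusted p = 0.0225) or without the normal array of mouse 106 (0.52, adjusted p = 0.0486), and Pdia3 under quantile normalization (0.38, adjusted p = 0.0269). The translocon-associated genes Ssr1 and Ssr3 differed by 0.01 ± 0.10 and 0.04 ± 0.16. Other probes of Ssr1 gave −0.57 and −0.20, so that gene is uncertain. Sec63, a partner of the translocation channel, rose by 0.38 ± 0.11 (adjusted p = 0.0212 in limma), a call lost when the polyp of mouse 106 (adjusted p = 0.0620) or that of mouse 110 (adjusted p = 0.0574) was left out. The call was also lost without the filter on dim probes (adjusted p = 0.0564) and as a mean over probes (0.29, adjusted p = 0.0674). The other Sec63 probe gave 0.21.

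Among the sensors and transcription factors, the membrane-bound factor gene Creb3l1 fell in polyps against both normal tissues. Creb3l1 was 3.14, 3.30, 2.92 and 2.68 in Apc normal tissue of mice 103, 106, 107 and 110, and 1.29, 0.89, 1.22 and 1.33 in their polyps. The polyps lay well below (−1.82 ± 0.17, 3.54-fold lower, adjusted p = 0.000147 in limma). Creb3l3 differed by −2.54 ± 0.66 (adjusted p = 0.0146), but its groups overlapped because the Apc normal tissue of mouse 103, at −1.24, lay near the polyps. Its call was lost without both arrays of mouse 107 (−2.38, adjusted p = 0.0603) and without the normal arrays of mice 106 and 110 (−1.98, adjusted p = 0.0838), settings chosen after seeing the data. Polyps differed from wild-type tissue by −0.19 ± 0.40 in Creb3l3 (adjusted p = 0.697), and Apc normal from wild-type tissue by 2.34 ± 0.66 (adjusted p = 0.159). On the wild-type slide Creb3l3 was lower at positions 2 and 4 than at 1 and 3 (−0.99), beyond the middle 95% of all genes given above. Another gene of that family, Creb3l2, was higher by 1.04 ± 0.23 (adjusted p = 0.00765). Atf6, the third sensor of the response, was lower by −0.60 ± 0.12 (adjusted p = 0.00476), and Eif2s1, which encodes eIF2α, was higher by 0.80 ± 0.19 (adjusted p = 0.00969). Eif2ak3, which encodes PERK and is named for its role, differed by 0.01 ± 0.17 (95% interval −0.38 to 0.39), and Mbtps2, a protease that cleaves ATF6, by 0.51 ± 0.22, which did not pass.

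Among the targets of the integrated stress response, Shmt2, Psat1 and Slc7a11 had the smallest p of those higher in polyps. Psat1, a serine synthesis enzyme, was −1.07, −0.21, 0.10 and −0.27 in Apc normal tissue of mice 103, 106, 107 and 110, and 1.18, 1.62, 1.64 and 1.56 in their polyps. These groups did not overlap (1.87 ± 0.25, 3.64-fold higher, adjusted p = 0.000671 in limma). Shmt2, which makes glycine from serine in mitochondria, was 2.68-fold higher (1.42 ± 0.18, adjusted p = 0.000485). Slc7a11, the cystine transporter, was well above background in all 4 polyps, in 1 of 4 Apc normal samples and in no wild-type sample. Slc7a11 thus entered the test only through its polyp arrays. A call as higher was nearly fixed beforehand, and its p carries no weight here. In polyps it was at least 13.8-fold higher than in Apc normal tissue and at least 17.2-fold higher than in wild-type tissue. For these bounds, each normal array counted at its own signal or at its dimmest signal well above background, whichever was higher. The bounds, 3.79 and 4.10 on the log2 scale, hold only for the processing behind the main values. Under the alternatives, the measured Slc7a11 difference was as low as 2.31 against Apc normal tissue and 2.58 against wild-type tissue.

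The list also had members that fell. Cth, which makes cysteine from cystathionine, was 2.03, 1.49, 2.75 and 1.45 in Apc normal tissue of mice 103, 106, 107 and 110 and −0.52, −0.53, −0.46 and −0.23 in their polyps. It was 5.15-fold lower (−2.37 ± 0.28, adjusted p = 0.000409 in limma), without overlap. Stc2, a secreted stress protein, differed by −1.03 ± 0.29 (adjusted p = 0.0213). Against wild-type tissue the Stc2 differences had the other sign, with polyps at 0.69 ± 0.34 (adjusted p = 0.114) and Apc normal tissue at 1.72 ± 0.42 (adjusted p = 0.125), neither of which passed. The call against Apc normal tissue was lost without the array of mouse 103 in either tissue and when the polyp of mouse 106 was left out (adjusted p = 0.0521 to 0.0572). The tryptophanyl-tRNA synthetase gene Wars differed by −0.28 ± 0.12 and did not pass.

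Against wild-type tissue, the same lists had 31 higher and 16 lower of 89 genes, beside 27.4% higher and 32.8% lower over all genes tested. The integrated stress response targets had 19 higher and 3 lower of 31 (median 0.69), where the median over all genes tested was −0.05. The 19 again include Slc7a11, tested only because of its polyp arrays. The genes of smallest p that passed in each list were Eif2s1 (1.09 ± 0.12) and Creb3l1 (−1.67 ± 0.18), P4hb (0.38 ± 0.08) and Dnajb9 (−0.92 ± 0.16), Edem1 (−0.86 ± 0.08) and Herpud1 (−0.91 ± 0.11), and Cth (−2.43 ± 0.11) with Slc7a11. P4hb encodes a disulfide isomerase. Between the 2 normal tissues none of the 89 genes passed in limma. The median there was 0.24, with −0.02 over all genes tested. Without the normal array of mouse 103, 3 of the 89 passed as higher and 1 as lower.

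For each of the 5 genes that passed between polyps and Apc normal tissue, the most similar genes were sought among 13266 genes well above background on all 12 arrays. Likeness was Pearson's r over the 12 arrays, which fall into polyps and normal tissue, so that any gene with the same split scores high. Trib3 was most like Gdpd5 (0.988), Rasgef1a (0.982) and Rnf213 (0.978). Ddit3 was most like Mmaa (0.980), Mtres1 (0.970) and Eif4a2 (0.966). Ern2 was most like Rasd1 (0.974), Chgb (0.973), an enteroendocrine granule gene, and Dhx32 (0.972). Xbp1 was most like Sec24d (0.963), which the ER lists already held, Ccdc115 (0.950) and Krtcap2 (0.942). Chac1 had no such close match, its highest values being 0.865 for Nudt5, 0.860 for Pdp1 and 0.858 for Mrpl22.

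Within the slides, each with 2 mice, the 5 genes that passed kept their directions. On slide 2 the differences were −1.13 for Ern2, −0.87 for Ddit3, −0.70 for Xbp1, 1.91 for Trib3 and 1.37 for Chac1. On slide 3 they were −0.90, −0.88, −0.50, 2.38 and 1.54 in that order. With 2 against 2 arrays on a slide, Trib3 on slide 3 was the only one of them that passed (adjusted p = 0.0297 in limma).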

How the data were processed

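RNA of 12 colorectal tissue samples was measured on single-colour Agilent arrays. The deposited scanner files hold spot intensity extracted by the authors with Agilent Feature Extraction 10.7.3.1, per the file headers, as a processed signal that is background-corrected. The deposited value table was compared with them: on each array 99.8% or more of its entries matched, to within 1%, a ratio of that signal to 1 fixed number, and no label says how that number was set. The value table was used further only as an alternative to the processed signal. The files place the probes on mm9.

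Here the log2 of the deposited processed signal was taken, less the 75th percentile of each array. Spots of a probe were averaged, without controls and without 1403 spots marked as outliers. The brightest probe stood for a gene. Testing required that probe to be well above background in every array of some group of 4, which kept 20084 genes. Names came from accessions for 27508 probes, from symbols for 3544 and from older synonyms for 404, and 7973 kept the name in the file. Each comparison was fitted on its own 8 arrays with lmFit and eBayes of limma 3.58.1 in R 4.3.3, with Benjamini-Hochberg adjustment and 95% intervals. The p-values measure the spread between 4 mice a group. No mouse term was fitted, so polyp and Apc normal tissue of the same 4 animals were treated as separate groups.

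The 10 genes, the other lists and the markers were chosen with earlier results of these data known. Further genes were named by rule: of each list, the 3 of smallest p in each direction between polyps and Apc normal tissue, the 2 of smallest p that passed in the other comparisons, the 3 most like each gene that passed, and 2 per marker list, with Ern1 and Eif2ak3 added for their role. On simulated data for polyps against Apc normal tissue over 20084 genes, the fit recovered 0% of genes changed by 0.5, 48% by 1, 80% by 2 and 86% by 3 on the log2 scale. Far fewer genes were changed in the simulation than passed in the data (20.5% higher and 24.9% lower), which makes its cut on p stricter. These shares therefore do not give the recovery in the data, where Sec63 passed at 0.38.

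Mouse numbers pair polyp and Apc normal tissue, since the labels give the same 4 animals. Deviations from the group means correlated within a mouse at 0.456, 0.170, 0.143 and 0.283, and between different mice at −0.328 to 0.193. Alternatives covered scaling, normexp correction (offset 50), the deposited value table, the filter and the choice of probe. They also covered all arrays in 1 fit, mouse and slide as blocks, single slides and leaving out each array.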

Additional observations from a re-analysis of the deposited data

Results flagged for a closer look

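In 105 groups of 4 arrays, those of the named genes, 10 held a sample far from the other 3 by Dixon's criterion, which chance alone meets in about 1 in 20 groups. Among the 10 stress response genes all were wild-type samples. Ddit3 was −0.29 in mouse 105, where the nearest of the others was −0.0097. Atf5 was 1.62 in mouse 108 (nearest 2.14), Trib3 −2.94 in mouse 108 (nearest −3.04) and Sesn2 −0.17 in mouse 102 (nearest 0.61).

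Among the other genes of the responses, the polyp of mouse 106 stood apart for Creb3l2 (−1.46, nearest −1.96), Hyou1 (−1.57, nearest −2.11) and Slc7a11 (−0.92, nearest −2.06). The Apc normal tissue of the same mouse stood apart for Mbtps2 (−4.36, nearest −3.76). Wild-type mouse 105 stood apart for Herpud1 (3.08, nearest 3.36) and for Slc7a11 (−7.22, nearest −7.58), which was not well above background there.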

How the results depend on the processing

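Over 230 values of the 10 genes between polyps and Apc normal tissue under the alternatives, 199 kept direction and call, 17 lost the call, 6 gained it and 8 changed sign. Over 170 values each, 161 kept both between the normal tissues (9 changed sign) and 158 between polyps and wild-type tissue. The cause of the changes was not tested. With mice as a block in a paired analysis, Atf5 passed (−0.34, adjusted p = 0.0380 in limma), as did Hyou1; it changed no other call named here.

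Between polyps and Apc normal tissue, 1 of the 10 genes passed as higher with all arrays in 1 fit or slide as a random block, and 1 to 2 without single arrays. Slide 2 alone gave 0 higher and 0 lower of the 10 genes, 5 and 5 of the other response genes and 1472 and 1994 of all genes. Slide 3 alone gave 1 and 0, 5 and 3, and 920 and 982. Hspa5 changed sign under quantile normalization (0.31; 0.30 with normexp), on slide 3 (0.00054), without the normal arrays of mice 106 and 110 (0.12) and without single arrays (−0.21 to 0.11). So did Atf4 (−0.031 on slide 3; −0.0056 to 0.13 without single arrays), Ssr1 (−0.26 as a mean over probes; −0.017 on slide 2; −0.033 to 0.052), Ssr3 (−0.064 to 0.12) and Eif2ak3 (−0.077 on slide 3; −0.23 without the normal arrays of mice 106 and 110; −0.10 to 0.16).

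Between the normal tissues, all genes passing as lower, 4 above, were 2 with median scaling, 9 with quantile normalization and 0 as a mean over probes. Higher and lower were 3 and 0 with normexp, 2 and 0 without a filter, 159 and 67 in 1 fit, and 467 and 347 with slide as a random block, which also gave 3 higher response genes. The fitted correlation within a slide was −0.082. A negative value shrinks the error of a comparison between slides, so the counts with that block make no allowance for a slide effect. Without single arrays, all genes passing as higher ran from 2 to 330 and as lower from 0 to 200, and response genes from 0 to 3 and from 0 to 1. Trib3 changed sign with normexp (−0.0015) and without single arrays (−0.024 to 0.11), as did Atf4 (−0.0083 to 0.14), Chac1 (−0.56 to 0.24) and Ern2 (−0.15 to 0.029).

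Against wild-type tissue, 4 of the 10 genes passed as higher with quantile normalization and 5 with normexp. Hspa5 and Atf4 were added in both, and Chac1 with normexp (1.13, adjusted p = 0.0463 in limma). The share of all genes passing under these settings is not given, so these counts say nothing about the 10 genes as a set. Xbp1 changed sign in both settings (0.0024 and 0.012), and Sesn2 without single arrays (−0.035 to 0.27). Leaving out both arrays of mouse 107, or the normal arrays of mice 106 and 110, was chosen after seeing the data.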
